A study of Homo sapiens with 6 samples.

Results

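The genes described here are YAP1 and WWTR1, the TEAD family genes TEAD1 to TEAD4, and 4 genes that are commonly read as targets of the complex, namely CYR61, CTGF, ANKRD1 and AMOTL2. They were chosen by name, with earlier results of these data known. All 10 were found among the 15897 genes of the deposited table. There CYR61 and CTGF carry these older symbols for CCN1 and CCN2. RNA was sequenced from 6 libraries of cells labelled H1650, a human lung adenocarcinoma line. Of these, 3 were labelled control, with the genotype wild type, and 3 shSETD2, which stands for short hairpin RNAs against SETD2, the enzyme that trimethylates histone H3 at lysine 36. The study made its stable lines with lentivirus and describes several hairpin constructs, but the labels do not tell which construct each shSETD2 library carries, nor what the control cells received. No separate cultures are named, so the p-values measure the spread between these libraries, which may be technical. Values are FPKM, fragments per kilobase of gene scaled to a common library size. Levels can be compared between genes, while comparisons between the groups depend on the scaling, for which alternatives are given below.

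YAP (encoded by YAP1) and its paralog TAZ (encoded by WWTR1) are transcriptional coactivators at the end of the Hippo pathway. In this pathway the MST kinases activate the LATS kinases, which phosphorylate YAP and TAZ, and the phosphorylated proteins are held in the cytoplasm by 14-3-3 proteins or degraded. Unphosphorylated YAP and TAZ enter the nucleus and bind DNA through the TEAD factors. In the lung the pathway is known for its part in the growth and repair of the airway and alveolar epithelium. Their activity depends largely on phosphorylation and location, which RNA levels do not show.

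The samples were checked against their labels before the members were compared. SETD2 averaged 15.3 ± 4.38 FPKM in control and 9.74 ± 2.15 FPKM in shSETD2 (SD, n = 3 each), the groups overlapped, and the adjusted p was 0.0641 in limma, which became 0.00666 without control library 2 and 0.042 without shSETD2 library 3. Pearson's r between libraries was taken on log2(FPKM + 1) over the 14068 genes that passed the filter (mean FPKM of at least 0.5). It was at least 0.982 within a group and at most 0.707 between the groups. Of 8 markers of lung epithelium, the table lists 3, and NKX2-1, the lung lineage factor, averaged 1.65 ± 0.188 FPKM in control (SD, n = 3) and was listed at 0 in every shSETD2 library. LAMP3 went the other way, from 0.584 to 1.23 FPKM (adjusted p = 0.000728). The summed FPKM of the 3, mostly ABCA3, lay between 15.5 and 15.9 in control and between 9.36 and 9.77 in shSETD2. Of 8 markers of epithelium, 7 are listed, with sums between 14.1 and 16.02 FPKM in control and between 402.1 and 454.5 in shSETD2, carried by KRT7, KRT8 and KRT18, while CDH1, the epithelial cadherin, was at 1.27 and 0.0120 FPKM on average. Of the kidney lineage markers reported here, PAX2, PAX8 and LHX1 were higher in shSETD2, with PAX8 at 0.0172 FPKM in control and 30.8 in shSETD2 on average, and SIX2 and EYA1, at 5.49 and 2.73 FPKM in control, were listed at 0 in every shSETD2 library. Mesenchymal markers, with 8 of 9 listed, summed to between 107.2 and 122.1 FPKM in control and between 169.5 and 179.6 in shSETD2. The rise of this sum was carried by VIM, from 66.5 to 132.4 FPKM on average. Of the 7 tested, 3 were called higher (VIM, FN1, CDH2) and 3 lower, beside 26.8% higher and 51.8% lower among all genes tested. CDH2 lost its call in several settings, such as quantile normalization (limma, adjusted p = 0.652). Those called lower were COL1A1, from 2.78 to 0.269 FPKM, SPARC, from 4.46 to 0.0225 FPKM, and TWIST1, from 7.91 FPKM to 0 in every shSETD2 library. These 3 had means under 0.5 FPKM in shSETD2 and passed the filter only through control. Their direction was therefore fixed by the filter. The markers of these lists moved with the groups as the members did, and their part in the differences below was not tested. All 6 libraries carry the same cell line label, but with SETD2 overlapping and lineage factors such as NKX2-1, PAX8, SIX2 and TWIST1 at or near 0 in one group alone, whether both groups are the same line was not tested. Control and shSETD2 therefore stand for the labels of the libraries, and loss of SETD2 and any other difference between the groups cannot be told apart. In bulk RNA, fewer cells of a type and less RNA per cell cannot be told apart.

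Of the 10 genes, 9 were higher and 1, ANKRD1, was lower in shSETD2 at an adjusted p under 0.05 (limma on log2(FPKM + 1), adjusted over the 14068 genes tested), and for each the groups did not overlap. This count has to be read against a wide background, since 78.6% of all genes tested were called. By direction, 26.8% of all genes were called higher and 51.8% lower in shSETD2. The groups did not overlap for 80.9% of all genes, with 27.9% higher and 53% lower in shSETD2. For the 10 genes the median log2 fold change came to 1.64, beside -0.29 for all genes tested. With median ratio scaling the median of all genes moved to -0.01 and the direction of each of the 10 genes stayed as it was. For a gene without overlap the exact permutation test of 3 libraries against 3 gives p = 0.1, the smallest it allows, and smaller adjusted p-values come from the model, which shares its estimate of the spread over genes.

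**Figure D1:**
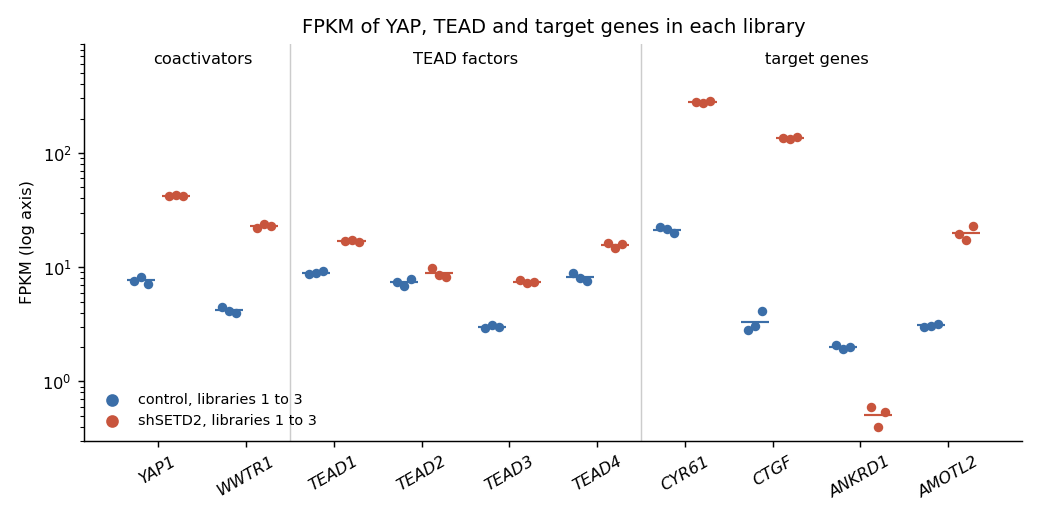
FPKM of the 10 genes on a log axis, with a point for each library and a line at each group mean (control in blue, shSETD2 in red, n = 3 each). The shSETD2 libraries lie above the control libraries for 9 genes and below them for ANKRD1, with means from 0.512 FPKM for ANKRD1 to 279.2 FPKM for CYR61 in shSETD2.

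The coactivators rose together. YAP1 (ENSG00000137693.13_3) spans bases 101981192 to 102104154 of chromosome 11 (GRCh37, plus strand). In the order of the replicate numbers, used throughout, its level was 7.60, 8.26 and 7.09 FPKM in control and 42.3, 42.8 and 41.6 FPKM in shSETD2. The lowest shSETD2 library lay 5.04-fold above the highest control library. The means were 7.65 ± 0.585 and 42.3 ± 0.592 FPKM (SD, n = 3), a ratio of 5.52, which on the log2 scale was a change of 2.32 with a standard error of 0.057 (limma, adjusted p = 2.01e-07). Among all genes tested, YAP1 stood at percentile 63.5 of the control means and at percentile 95.04 of the shSETD2 means.

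WWTR1 (ENSG00000018408.14_3) encodes TAZ (chromosome 3, 149235022 to 149454501, minus strand). It was at 4.52, 4.18 and 3.99 FPKM in control and at 22.2, 23.8 and 22.8 FPKM in shSETD2, again with no overlap. Its means differed by a ratio of 5.43, and the log2 change was 2.20 with a standard error of 0.056 (adjusted p = 2.27e-07). An annotated intronic transcript on the same strand, WWTR1-IT1, was at 0.263 FPKM in control and 2.01 FPKM in shSETD2, and how reads were divided between it and WWTR1 is not given in the sources used here. The division of the coactivator RNA between YAP1 and WWTR1 differed by less than the spread between libraries. YAP1 made up 62.7, 66.4 and 64.0% of their summed FPKM in control and 65.6, 64.2 and 64.6% in shSETD2. These shares overlapped, with means of 64.4 ± 1.87% and 64.8 ± 0.705% (SD, n = 3; exact permutation test, two-sided, p = 0.8). A share within a library does not change when the whole library is multiplied by 1 factor, but it can under quantile normalization.

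The TEAD factors, which bind DNA and recruit YAP or TAZ, rose less than the coactivators. TEAD1 (ENSG00000187079.16_3, chromosome 11, 12696138 to 12966030, plus strand) was at 8.74, 8.90 and 9.25 FPKM in control and at 16.9, 17.2 and 16.7 FPKM in shSETD2. TEAD4 (ENSG00000197905.8_4, chromosome 12, 3068496 to 3149839, plus strand) was at 8.86, 8.08 and 7.57 FPKM in control and at 16.2, 14.6 and 15.8 FPKM in shSETD2. The changes of TEAD1 and TEAD4 were of like size, at 0.85 on the log2 scale for both, with standard errors of 0.042 and 0.069 (adjusted p = 3.99e-06 and 4.04e-05). TEAD3 (ENSG00000007866.19_4, chromosome 6, 35441374 to 35464853, minus strand) was the scarcest of the family in both groups, at 2.92, 3.09 and 2.99 FPKM in control and 7.69, 7.33 and 7.35 FPKM in shSETD2. Its log2 change was the highest of the family, at 1.08 with a standard error of 0.049 (adjusted p = 2.62e-06).

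TEAD2 (ENSG00000074219.13_3, chromosome 19, 49843852 to 49865714, minus strand) differed least. Its FPKM was 7.48, 6.89 and 7.94 in control and 9.79, 8.51 and 8.28 in shSETD2, so that the lowest shSETD2 library lay 1.04-fold above the highest control library. The log2 fold change of 0.22 (95% interval 0.03 to 0.42, adjusted p = 0.0379) was called, but it lost its call in 6 of 16 alternative settings. Without control library 1 or 2 its adjusted p was 0.0811 and 0.114, and without shSETD2 library 1 or 2 it was 0.0981 and 0.0549. With median ratio scaling its log2 fold change was 0.54. DKKL1 and CD37 overlap TEAD2 on the other strand, and whether the counting used strand is not given in the sources used here, although the library kit is a stranded one.

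Together the 4 TEAD genes summed to 28.0, 27.0 and 27.7 FPKM in control and to 50.5, 47.6 and 48.1 FPKM in shSETD2. Their proportions shifted. TEAD2 went from 27.0 ± 1.54% to 18.1 ± 1.12% of the sum and TEAD3 from 10.9 ± 0.522% to 15.3 ± 0.0936% (SD, n = 3), both without overlap of the groups (exact permutation p = 0.1). TEAD1 made up 32.5 ± 1.15% and 34.7 ± 1.31%, and TEAD4 29.6 ± 2.20% and 31.9 ± 1.10%, the latter with overlap (exact permutation p = 0.2). Since the coactivators rose more than the TEAD factors, their balance turned. The summed FPKM of YAP1 and WWTR1 was 0.433, 0.461 and 0.399 of the summed TEAD FPKM in control and 1.28, 1.40 and 1.34 in shSETD2.

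**Figure D2:**
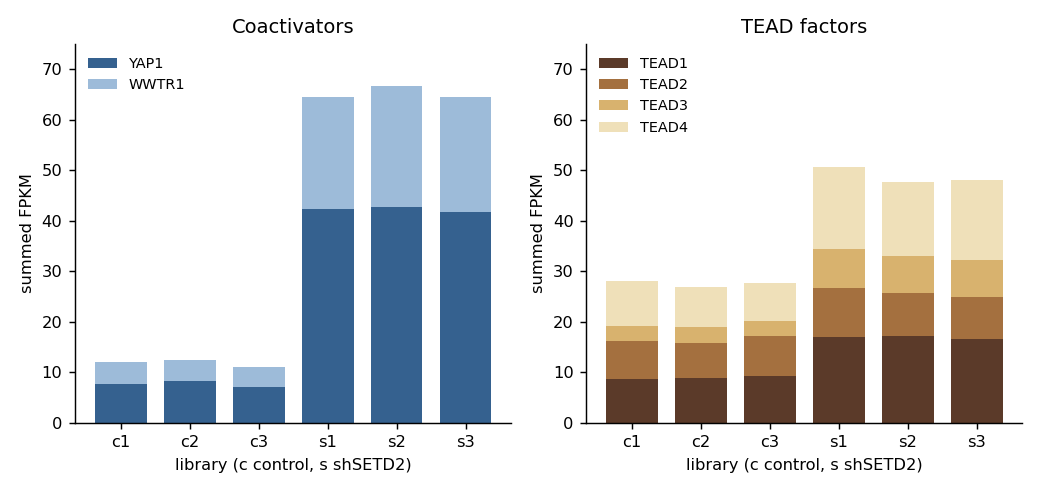
Summed FPKM of the coactivators (left) and of the TEAD factors (right) in each library, stacked by gene (c1 to c3 control, s1 to s3 shSETD2). The coactivator sum lies at or under 12.4 FPKM in control and at or above 64.5 in shSETD2, while the TEAD sum goes from at most 28.0 to at least 47.6 FPKM.

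The target genes are read as outputs of DNA-bound TEAD, so their promoters are shown before their levels. Promoter windows of 250 bases before a start given by RefSeq (table build GRCh38.p14) were placed on GRCh37 by a perfect match. A RefSeq start can differ from the start of the gene in the deposited table. There ANKRD1 starts at base 92681033, inside its window. The windows of WWTR1, a window of TEAD2 and the downstream window of AMOTL2 lie wholly inside the listed genes. The table held 7 of the 10 genes, and CYR61, TEAD1 and TEAD4 were not among them. The core of the TEAD motif, GGAATG on either strand, was searched together with TGANTCA and the CArG box of serum response factor. TGANTCA is a degenerate form of the AP-1 motif, with any base at N, and the pattern reads alike on both strands. Of all 35116 windows, 11.9% held GGAATG, 0.940% held it at least 2 times and 0.083% at least 3 times, while 6.57% held TGANTCA and 1.16% a CArG box. The windows of the 3 target genes are shown because 2 of these genes rose and the third fell. Matches of GGAATG, of its reverse complement CATTCC and of TGANTCA are printed in capitals.
CTGF, chr6:132272513-132272762, minus strand: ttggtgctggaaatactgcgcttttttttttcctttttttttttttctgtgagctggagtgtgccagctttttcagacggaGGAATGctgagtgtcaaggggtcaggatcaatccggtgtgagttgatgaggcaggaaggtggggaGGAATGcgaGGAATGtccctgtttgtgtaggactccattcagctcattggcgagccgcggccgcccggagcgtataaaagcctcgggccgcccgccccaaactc
ANKRD1, chr10:92680845-92681094, minus strand: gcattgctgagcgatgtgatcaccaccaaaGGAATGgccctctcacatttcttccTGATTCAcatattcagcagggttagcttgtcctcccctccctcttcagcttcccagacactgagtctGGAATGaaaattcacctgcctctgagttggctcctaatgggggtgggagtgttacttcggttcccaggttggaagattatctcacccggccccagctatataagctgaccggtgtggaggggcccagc
AMOTL2, downstream start, chr3:134093290-134093539, minus strand: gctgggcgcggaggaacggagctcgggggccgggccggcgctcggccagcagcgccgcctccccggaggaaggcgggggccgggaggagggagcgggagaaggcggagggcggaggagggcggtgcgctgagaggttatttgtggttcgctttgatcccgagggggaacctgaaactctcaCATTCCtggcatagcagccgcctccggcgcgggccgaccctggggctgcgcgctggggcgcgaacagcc
The CTGF window holds GGAATG 3 times, with first bases at -169, -104 and -95 from the RefSeq start. The ANKRD1 window holds it 2 times, at -220 and -128, and TGANTCA, with T at N, at -195. AMOTL2 has 2 windows, of which the downstream one holds CATTCC at -69 and the upstream one, chr3:134094260-134094509, holds none of the motifs. YAP1 holds GGAATG at -162, and the windows of WWTR1, TEAD2 and TEAD3 hold none of the 3 motifs. No CArG box was found in these windows. The matches describe letters only and do not show that a factor binds.

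CYR61 (ENSG00000142871.16_3) encodes a secreted matricellular protein of the CCN family (chromosome 1, 86046444 to 86049645, plus strand). It had the highest level of the 10 genes in both groups, at 22.5, 21.5 and 20.1 FPKM in control and at 280.0, 274.3 and 283.4 FPKM in shSETD2. The groups lay far apart, with means of 21.3 ± 1.22 and 279.2 ± 4.61 FPKM (SD, n = 3), a ratio of 13.1, and the log2 change was 3.65 with a standard error of 0.047 (adjusted p = 2.36e-08).

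CTGF (ENSG00000118523.5_2) encodes the connective tissue growth factor of the same family (chromosome 6, 132269316 to 132272513, minus strand). It changed most, from 2.79, 3.03 and 4.15 FPKM in control to 136.1, 133.7 and 138.5 FPKM in shSETD2. Control library 3 stood above the other control libraries, and the control values had a coefficient of variation of 21.8%, beside 1.76% in shSETD2. The ratio of the means was 41.0, with ratios from 32.2 to 49.6 between single libraries, and the log2 change was 5.0 with a standard error of 0.11 (adjusted p = 1.46e-07). In the control libraries CYR61 exceeded CTGF by a ratio of 8.05, 7.09 and 4.84, and in the shSETD2 libraries by 2.06, 2.05 and 2.05. CTGF went from percentile 36.4 of the control means to percentile 99.0 of the shSETD2 means. Of the 4 other CCN genes, WISP2 and NOV are listed at a mean of at most 0.146 FPKM in either group, and the table does not list WISP1 or WISP3.

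AMOTL2 (ENSG00000114019.14_3, chromosome 3, 134074716 to 134094321, minus strand) encodes an angiomotin, a target gene whose protein in turn binds YAP and restrains it. It was at 3.02, 3.08 and 3.19 FPKM in control and at 19.5, 17.3 and 23.0 FPKM in shSETD2, where library 3 was highest and the coefficient of variation was 14.4%. The groups did not overlap, with a ratio of means of 6.44 and a log2 change of 2.35 with a standard error of 0.10 (adjusted p = 2.05e-06). Set against the summed coactivators of the same library, AMOTL2 stood at 0.261 ± 0.0228 in control and 0.306 ± 0.0485 in shSETD2 (SD, n = 3), values that overlapped (exact permutation p = 0.2). The same ratio for CTGF went from 0.283 ± 0.0795 to 2.09 ± 0.0736, and for CYR61 from 1.80 ± 0.0640 to 4.28 ± 0.148, both without overlap. These ratios were chosen after the values were seen.

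ANKRD1 (ENSG00000148677.6_2, chromosome 10, 92671853 to 92681033, minus strand) encodes a nuclear ankyrin repeat protein known from muscle, and it is widely used as a YAP target. It went against the others, at 2.10, 1.92 and 1.99 FPKM in control and at 0.593, 0.399 and 0.543 FPKM in shSETD2. Every shSETD2 library lay below every control library, the control mean was 3.91 times the shSETD2 mean, and the log2 change was -0.99 with a standard error of 0.070 (adjusted p = 2.09e-05). At such low levels the size depends on the pseudocount and the scaling, and it was -1.97 with a pseudocount of 0.01 and -0.57 after quantile normalization. The ratio of CTGF to ANKRD1 within a library was between 1.33 and 2.08 in control and between 229.5 and 335.3 in shSETD2.

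**Figure D3:**
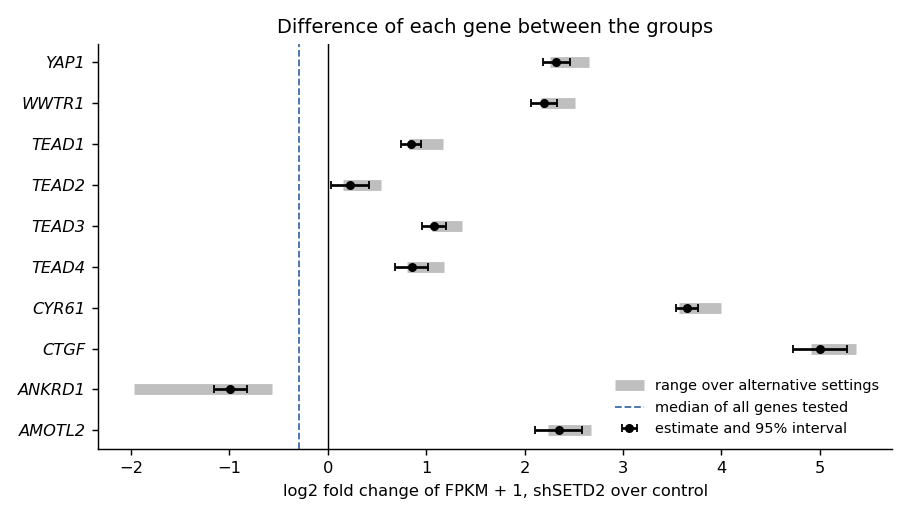
Log2 fold change of FPKM + 1, shSETD2 over control, for each gene, with its 95% interval (black) and the range over the alternative settings (grey). The dashed line is the median of all genes tested, -0.29, and the points run from -0.99 for ANKRD1 to 5.0 for CTGF.

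The order of the levels also changed. In control, CYR61 stood alone at the top, followed by TEAD1, TEAD4, YAP1 and TEAD2, whose neighbours in this order overlapped. WWTR1, CTGF, AMOTL2 and TEAD3 came next, between 4.23 and 3.00 FPKM on average and again overlapping from neighbour to neighbour, and ANKRD1 was lowest. In shSETD2, CYR61 was followed by CTGF, YAP1, WWTR1 and AMOTL2, then by TEAD1, TEAD4, TEAD2, TEAD3 and ANKRD1. There WWTR1 and AMOTL2 alone overlapped as neighbours, and no other neighbours overlapped.

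A list of 18 further genes commonly used as YAP and TAZ targets was set beside the members. Like the members and the lists that follow, it was chosen with earlier results of these data known. Its counts are therefore a description of these data only. Of the 17 tested, 15 were higher and 2 lower in shSETD2, beside 26.8% and 51.8% of all genes, and the median log2 fold change was 1.57 beside -0.29 for all genes tested. AXL, a receptor tyrosine kinase, was at 0.192, 0.194 and 0.0782 FPKM in control and at 45.7, 42.9 and 47.9 FPKM in shSETD2. MYOF, which encodes the membrane repair protein myoferlin, was at 0.232, 0.405 and 0.351 FPKM in control and at 51.7, 52.3 and 53.2 FPKM in shSETD2. Both were nearly off in control, with adjusted p-values of 2.29e-08 and 1.54e-08. The genes called lower were FOXF2, a forkhead factor of mesenchyme, from 11.8 ± 0.527 to 0.0175 ± 0.0303 FPKM, and CCDC80, from 0.781 ± 0.107 to 0.238 ± 0.0454 FPKM (SD, n = 3). CCDC80 lost its call after quantile normalization (adjusted p = 0.523). IGFBP3 was below the filter, and LATS2 and PTPN14 also stand in the lists that follow. AXL, MYOF, NT5E and TGFB2 had control means under 0.5 FPKM and passed the filter only through shSETD2. FOXF2 and CCDC80 passed it only through control. The direction of these differences was therefore fixed by the filter and is no support in the count.

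Genes upstream of YAP and TAZ moved in both directions. Of 24 genes of the Hippo kinase cassette and its regulators, 23 passed the filter, 12 rose and 8 fell in shSETD2, where 26.8% of all genes rose and 51.8% fell. Their median log2 fold change was 0.13. Under median ratio scaling 16 rose and 5 fell. With control library 2 left out, 9 rose and 7 fell. FRMD6, a FERM domain protein that acts on the kinases, was at 1.39 ± 0.0369 FPKM in control and 18.9 ± 0.732 in shSETD2 (SD, n = 3; adjusted p = 4.70e-08). WWC1, which encodes KIBRA, went from 3.58 ± 0.0811 to 20.2 ± 0.126 FPKM (adjusted p = 7.10e-08). LATS1 fell from 13.3 ± 0.294 to 7.04 ± 0.366 FPKM (adjusted p = 1.12e-05) and TAOK2, a kinase that activates the MST kinases, from 11.04 ± 0.589 to 6.20 ± 0.433 FPKM (adjusted p = 6.06e-05).

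Among 20 genes whose products retain, degrade or dephosphorylate YAP and TAZ or their kinases, 6 were higher and 11 lower, with a median log2 fold change of -0.34. These numbers were near the background of 26.8% higher and 51.8% lower with a median of -0.29, so they say little about the list. Under median ratio scaling it was 8 higher against 6 lower. SFN, which encodes 14-3-3 sigma, was at 0.485, 0.348 and 0.285 FPKM in control and at 256.5, 222.3 and 249.0 FPKM in shSETD2 (adjusted p = 1.09e-08). SFN passed the filter only through shSETD2. PTPN14, a phosphatase that binds YAP, went from 2.85 ± 0.139 to 32.0 ± 0.603 FPKM (SD, n = 3; adjusted p = 3.88e-08). AMOT and AMOTL1, the paralogs of AMOTL2, fell from 48.7 ± 0.797 to 5.09 ± 0.253 FPKM and from 15.0 ± 0.521 to 4.38 ± 0.171 FPKM, with adjusted p-values of 3.88e-08 and 5.78e-07. Of the VGLL cofactors, which compete with YAP and TAZ for TEAD factors, the table lists VGLL3 and VGLL4. VGLL3 went from 1.498 ± 0.152 to 0.985 ± 0.155 FPKM and VGLL4 from 7.55 ± 0.461 to 6.51 ± 0.344 FPKM. Their calls (adjusted p = 0.00869 and 0.0323) were lost with quantile and with median ratio scaling, and the sign turned for VGLL3 under the former and for VGLL4 under the latter.

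**Figure D4:**
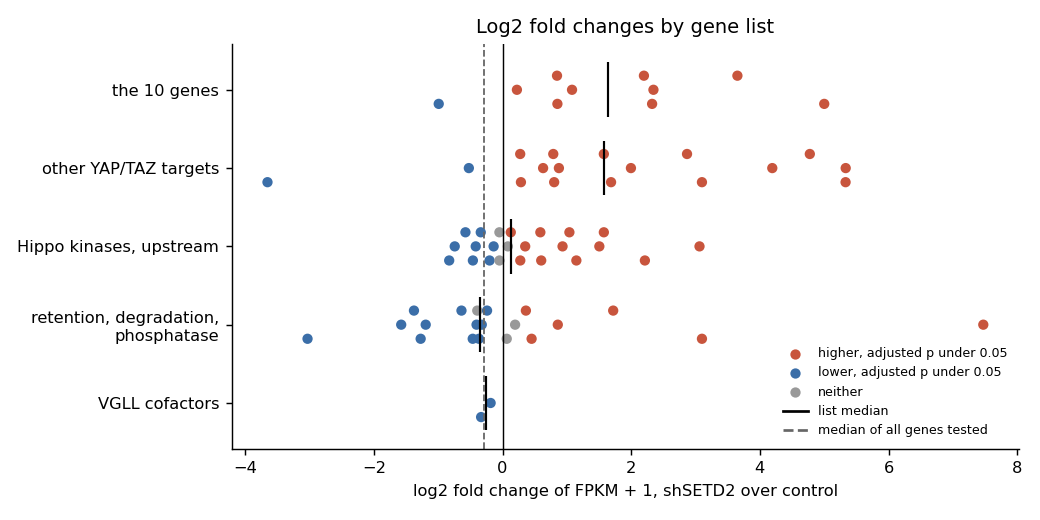
Log2 fold change of FPKM + 1, shSETD2 over control, for each tested gene of the lists (red higher and blue lower at an adjusted p under 0.05, grey neither). Black bars mark list medians of 1.64 for the 10 genes, 1.57 for other targets, 0.13, -0.34 and -0.26 for the lists below them, and the dashed line marks -0.29, the median of all genes tested.

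Shares within several paralog sets of the pathway shifted, a pattern picked after the values were seen and so given as a description. The 3 angiomotins summed to between 65.6 and 67.7 FPKM in control and between 27.3 and 32.2 FPKM in shSETD2. AMOT made up 72.9 ± 0.518% of this sum in control and 17.4 ± 2.26% in shSETD2, and AMOTL2 4.63 ± 0.199% and 67.6 ± 3.97% (SD, n = 3). LATS1 and LATS2, the kinases that phosphorylate YAP and TAZ, summed to 16.8 ± 0.466 and 19.4 ± 0.133 FPKM, while LATS2, itself a known target of YAP, went from 20.8 ± 0.669% to 63.7 ± 2.13% of the sum. Of the MST kinases, STK4 (MST1) went from 4.67 ± 0.198 to 9.82 ± 0.327 FPKM and STK3 (MST2) from 2.77 ± 0.145 to 1.82 ± 0.0565 FPKM, although STK3 was not called after quantile normalization (adjusted p = 0.230). STK4 led in both groups, with 62.8 ± 2.04% of the sum in control and 84.4 ± 0.581% in shSETD2, as did MOB1A among the MOB1 genes, with 78.0 ± 0.703% and 87.3 ± 0.109%. KIBRA paralogs showed the same kind of shift, with WWC1 at 45.2 ± 0.821% and 77.7 ± 0.373% of the sum with WWC2. Among 7 genes of 14-3-3 proteins, SFN went from 0.106 ± 0.0263% to 37.1 ± 1.97% of the sum. The shares of the genes named so far in this paragraph did not overlap between the groups, but neither did the levels of 80.9% of all genes tested. The share of YWHAZ in the 14-3-3 sum overlapped, at 13.7 ± 1.16% and 13.4 ± 1.47%, as did that of YAP1 among the coactivators.

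**Figure D5:**
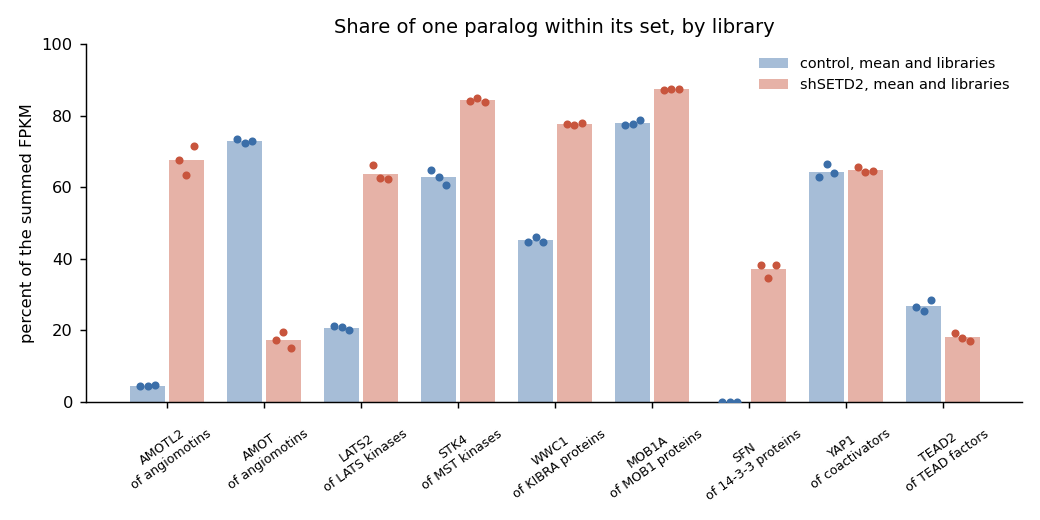
Percent of the summed FPKM of a paralog set taken by the gene named first on each label, as group means (bars, control in blue and shSETD2 in red) with the 3 libraries of each group as points. AMOTL2 goes from 4.63 to 67.6% and LATS2 from 20.8 to 63.7%, while YAP1 stays at 64.4 and 64.8%.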

How the data were processed

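RNA-seq of 3 control and 3 shSETD2 libraries was used. The authors mapped reads to hg19 (GRCh37) with Hisat2, quantified genes with Ballgown and deposited FPKM per gene and library. Versions of these tools, the annotation and the filter on listed genes are not given in the sources used here. A second deposited table repeats the FPKM beside the authors' own fold changes, p-values and q-values, and was not used. All columns of the table used were matched to a library by name. Since the ratios of values under 0.1 FPKM did not fall on common steps, reads could not be recovered, which leaves the depth unknown and the counting error out.

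The 14068 genes whose mean FPKM reached 0.5 entered a linear model of log2(FPKM + 1) in limma 3.58.1 (R 4.3.3, empirical Bayes with an intensity trend), with Benjamini-Hochberg adjustment and a threshold of 0.05. This scale understates changes of low genes. Shares and ratios of FPKM were compared with two-sided exact permutation tests. Python 3.11.15 with pandas 2.3.3 and matplotlib 3.10.9 served for tables and plots.

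The members and gene lists were chosen with earlier results of these data known. All members are named. Some kidney lineage markers, and the sum over that list, are not reported here. From each list, the 2 genes with the largest and the 2 with the smallest log2 fold change among those called without overlap are named. Others are named only where a paralog or the filter is described. The 2 protein-coding genes nearest to YAP1 and to CTGF are named too. Other pathway genes in the closing section and the named markers were chosen after their values were seen. Alternatives were pseudocounts of 0.1 and 0.01, no filter or a higher one (mean FPKM of 5), scaling by upper quartile, by quantiles or by median ratios, no trend, an ordinary linear model, a block for the replicate number, the omission of single libraries, and shares from FPKM + 1.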

Additional observations from a re-analysis of the deposited data

How the results depend on the processing

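Of 386 values recomputed under the alternatives, 361 kept their direction and call, or stayed within the limits set for counts and shares. Among the 386 values no called one reversed, but the difference in the YAP1 share, which was within the spread, changed sign. Single genes of the lists are not among these values. Of them, TAOK1 was called lower (adjusted p = 0.0366) but higher with median ratio scaling (log2 fold change 0.19, adjusted p = 0.00782). SCRIB and YWHAE were not called at first, but they were called in opposite directions under different scalings. With median ratio scaling they were higher (limma, adjusted p = 0.00297 and 5.53e-05). After quantile normalization they were lower (limma, adjusted p = 0.0235 and 0.00198). SAV1, WTIP, STRN3, YWHAQ, VGLL3 and VGLL4 were called lower and changed sign under a scaling, without a call there. All 10 members kept their direction in every alternative that could be run, and all but TEAD2 kept their call. ANKRD1 was not tested with a mean FPKM of at least 5, which left 0 members called lower. For TEAD2 the log2 fold change of 0.22 was no longer called with an ordinary linear model (adjusted p = 0.0763) or a replicate block (0.0518), and leaving out each library gave 0.16 to 0.27. The replicate numbers did not pair the libraries, since the deviations of same-numbered libraries from their group means correlated at -0.024, 0.018 and -0.0077. With the replicate block, 10976 of all genes were called instead of 11057, no other member changed its call, and SETD2 was called (adjusted p = 0.0156). Of the Hippo kinases and upstream regulators, 8 were called lower, against 5 with a mean FPKM of at least 5 or with upper quartile, quantile or median ratio scaling, and 5 to 7 when each library was left out, the 5 without shSETD2 library 1. Of the retention, degradation and phosphatase genes, 6 instead of 11 were lower with median ratio scaling. Of the VGLL cofactors, 1 was lower with a mean FPKM of at least 5 or upper quartile scaling, 0 with quantile or median ratio scaling, and 1 to 2 without a library, the 1 without control library 1 or 3 or shSETD2 library 2 or 3. Of the other targets, 1 was lower with a mean FPKM of at least 5 or quantile normalization. Computed from FPKM + 1, the YAP1 share differed by 2.05 percentage points and the TEAD3 share by 3.35, beside 0.42 and 4.40 from FPKM. Leaving out single libraries, the YAP1 share difference ran from -0.39 without control library 1 to 1.44 without control library 2, and the TEAD4 share difference of 2.24 from 1.06 without control library 3 to 3.25 without control library 1. Median ratio scaling raised the share of higher calls among all genes, with 5305 higher and 5394 lower instead of 3774 and 7283. Precision rests on 3 libraries a group, since the depth is unknown.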

Other observations

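The genes whose pattern was most like that of YAP1 were TRIO, a guanine nucleotide exchange factor, and MACF1, a linker of actin and microtubules, with Euclidean distances of 0.234 and 0.291 on log2(FPKM + 1) over the 6 libraries. TRIO was at 7.34 FPKM in control and 45.6 in shSETD2 on average, and MACF1 at 8.04 and 46.6. For CTGF they were EPHA2, an ephrin receptor, and CITED4, a transcriptional coregulator, at distances of 0.597 and 0.821. EPHA2 was at 4.19, 4.12 and 3.64 FPKM in control and at 142.3, 127.4 and 140.7 FPKM in shSETD2. CITED4 was at 3.66 FPKM in control and 180.5 in shSETD2 on average. The distance measures level and group difference alike, and nothing follows from it about shared control.

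Some pathway genes varied widely between libraries of a group. AJUBA, a LIM protein that binds LATS kinases, was at 5.41, 6.34 and 14.8 FPKM in shSETD2 and at 3.96, 2.08 and 3.48 FPKM in control. Its call (adjusted p = 0.0264) was lost without control library 2 (0.0862) or 3 (0.0545) and with an ordinary linear model (0.0844). YWHAH, a 14-3-3 gene, was at 49.5, 20.9 and 47.8 FPKM in control and at 27.3, 28.0 and 28.1 FPKM in shSETD2. The groups of YWHAH overlapped only through control library 2. YWHAB, another 14-3-3 gene, was at 15.5, 16.3 and 6.84 FPKM in control and at 62.4, 35.4 and 33.5 FPKM in shSETD2. These 3 genes were chosen after their values were seen.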
